A study of Arabidopsis thaliana with 16 samples.

Results

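The regions described here are the deposited intervals in which tagged HSFA1b was called on the chromatin of unstressed 35S:HSFA1b plants, on chromosomes 1 to 5 of Arabidopsis thaliana. The list held 19640 such intervals, of 35133 in the 4 lists of the series, and all of them were used. They were divided by width alone into 13498 narrow intervals of at most 1000 bp and 6142 wide intervals of more than 1000 bp, since a wide interval can span several genes but carries 1 summit. The measurement was ChIP-seq, in which formaldehyde-fixed chromatin is sheared, the fragments carrying a tagged protein are captured with an antibody, and the DNA is sequenced. Of the 16 samples, which fell into 8 groups of 2, the groups compared were 35S:HSFA1b NS and 35S control NS (NS, non-stress), with 2 samples each. All came from leaves of 5-week-old Columbia 0 plants kept at 23 °C and 60% relative humidity, and the anti-RFP antibody was used for the controls as well.

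The study's methods give the overexpressor as 1 line, 35S:HSFA1b-RFP-B in Col-0, in which the viral 35S promoter drives the fusion protein in most cell types of the leaf, so that binding was read at a level and in cells set by that promoter. The endogenous HSFA1b gene was also present. Labels give no genotype for the control plants beyond the ecotype. The samples were merged before peaks were called, and the header of the list names 4 control libraries, 2 of which were also the controls of the 35S:HSFA1b HS list (HS, heat stress, 37 °C and 86% relative humidity for 30 min). Each interval therefore has 1 pooled value, with no replicate error and no test over samples. Shares are given with exact binomial (Clopper-Pearson) 95% intervals, which cover counting error only.

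HSFA1b belongs to the clade A1 heat shock factors, which start the heat shock response in plants. Under normal conditions these factors are held back by HSP70 and HSP90 chaperones, and on heating they form trimers that bind heat shock elements (HSEs) and switch on genes for chaperones and for further heat shock factors. An HSE is built of GAA units in alternating orientation. The G-box is a palindrome bound by many basic helix-loop-helix and basic leucine zipper proteins, among them the phytochrome-interacting factors of light signalling.

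The HSE searched here was GAANNTTCNNGAA, of 3 units and without mismatch, on both strands, and the G-box was CACGTG. A match was counted when it lay within 50 bp of a summit, the position of highest fragment coverage in an interval. The sequences below are those of summits that carry the HSE at genes of chaperones, co-chaperones and related stress functions, on the TAIR10 assembly (RefSeq copy), 5′ to 3′ on the strand of the gene, with 8 bp on each side and the HSE in capitals. They were picked for the function of the gene among the HSE summits of highest fold enrichment, with GolS1 and SR45a added after their values were seen.
HSC70-1, chr5:556554-556582, minus strand: caaccatcGAACATTCTCGAAacatttta
Hop3, chr4:7341319-7341347, minus strand: aaaaattcGAAATTTCGAGAActctcttg
AT2G20560 (DnaJ protein), chr2:8849996-8850024, minus strand: tcagagatTTCTCGAACGTTCcacagaat
SR45a, chr1:2260131-2260159, minus strand: gtccgactTTCCCGAAGCTTCtttctaaa
GolS1, chr2:19370558-19370586, minus strand: gtcccactTTCCAGAACTTTCacggtttc
AT3G09440 (HSP70-3), chr3:2905894-2905922, minus strand: atcgaaccGAACATTCTCGAAccttttta
HSP17.4, chr3:16984865-16984893, minus strand: agaaacctGAAATTTCAAGAAacttgcag
AT1G71000 (DnaJ protein), chr1:26770283-26770311, minus strand: atgttcccGAACGTTCTTGAAtcttgaga
BOB1, chr5:21661424-21661452, plus strand: cttactacTTCTCGAACCTTCtcgatttg

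The first 5 lie in narrow intervals and the other 4 in wide ones. At HSC70-1, a constitutive cytosolic HSP70, the centre of the HSE was 6 bp from the summit and 55 bp downstream of the transcription start site (TSS), in the 5′ transcribed part of the gene. SR45a codes for a splicing regulator and GolS1 for galactinol synthase, which makes protective sugars under stress. HSC70-1 and HSP70-3 hold the same 13 bases, GAACATTCTCGAA, at genes on different chromosomes, and each summit reached a pileup of 300. Such identity was not limited to this pair. AT2G24680 and PUX5 also shared an HSE, on opposite strands of the genes, as did AT3G03165 and AT3G17130. At Hop3, a co-chaperone that joins HSP70 and HSP90, the HSE was centred 3 bp from the summit and 30 bp downstream of the TSS. The 2 DnaJ genes, which code for partners of HSP70, carried their HSE 101 bp downstream (AT2G20560) and 120 bp upstream (AT1G71000) of the TSS. BOB1, a small-HSP-like chaperone, and HSP17.4, a cytosolic class I small HSP, held it within 12 bp of the TSS.

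A few summits held both motifs, and 4 of them are shown because the HSE and the G-box lie close together there. Capitals mark both motifs, and the strand is the plus strand of the chromosome.
AT3G03165, chr3:5380894-5380932: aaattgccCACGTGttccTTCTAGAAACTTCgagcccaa
RKD5, chr4:16892861-16892897: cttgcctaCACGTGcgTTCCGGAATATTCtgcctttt
ERF2, chr5:19172964-19173003: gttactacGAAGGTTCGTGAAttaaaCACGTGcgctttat
BI1, chr5:19135858-19135925: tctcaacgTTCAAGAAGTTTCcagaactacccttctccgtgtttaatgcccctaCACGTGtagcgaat

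All 4 of these windows were intergenic and upstream of the TSS, with the summits between 35 and 157 bp from it. The motifs were separated by 4 bases at the non-coding gene AT3G03165 (pileup 278, fold enrichment 2.99), 2 bases at RKD5, a gene of the RWP-RK family (146, 1.58), 5 bases at ERF2, an ethylene response factor (248, 2.67), and 33 bases at BI1, the BAX inhibitor of the endoplasmic reticulum (ER) membrane (312, 3.36). Such pairs were rare. Among summits of fold enrichment of at least 2 they were found at 1 of 1187 narrow and 3 of 2321 wide ones.

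G-box summits of high fold enrichment follow as examples of the more frequent motif, with the G-box in capitals. They were chosen after their values were seen.
AT1G04453, chr1:1953870-1953891, minus strand: ggatcggaCACGTGatatggag
LCR32, chr2:12152424-12152445, minus strand: gaagcaatCACGTGccatcacg
MIPS1, chr4:18472421-18472442, minus strand: aaacgctaCACGTGattcctac
Cpn60beta3, chr5:22873543-22873564, plus strand: attcgtgaCACGTGtcaaacaa

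AT1G04453 is a non-coding gene beside the trehalose-phosphate synthase gene TPS7, LCR32 codes for a small cysteine-rich protein, MIPS1 for myo-inositol-phosphate synthase, and Cpn60beta3 for a chaperonin subunit of the plastid. Their summits had pileups of 324, 309, 292 and 282 and fold enrichments of 3.48, 3.32, 3.14 and 3.03. The G-box was centred within 33.5 bp of the summit in each.

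For each interval the caller gave the pileup, which is the number of fragments that cover the summit in the merged 35S:HSFA1b NS libraries, and the fold enrichment, which is that pileup plus 1 over the local background plus 1. At 19279 of the 19640 summits (98.2%) the background was the same value, 92.3, the lowest in the list. At these summits the fold enrichment is thus a rescaled pileup and holds no information from the control libraries at that position. In the native-promoter list of the same condition (NP:HSFA1b NS, 955 intervals on the chromosomes) 25.03% of summits had the lowest background. The share was 96.1% in 35S:HSFA1b HS, so this trait was common to both 35S lists, and 49.9% in NP:HSFA1b HS. The constant background was 2.97 times the mean coverage computed from fragment number, fragment size and genome size. The lowest background was 2.71 times that coverage in 35S:HSFA1b HS, 0.897 times in NP:HSFA1b NS and 1.00 times in NP:HSFA1b HS.

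Narrow intervals were weak by this measure. They were 214 to 1000 bp wide with a median of 448 bp, their pileups ran from 112 to 979 with a median of 136, and the middle 50% lay between 124 and 157. Their fold enrichment ran from 1.01 to 4.63 with a median of 1.46, and 1187 of the 13498 reached 2. Summits of fold enrichment of at least 2 are called strong below, and those under 1.5 weak. Wide intervals had higher summits, with a median pileup of 171 (range 115 to 1465), a median fold enrichment of 1.82 (1.07 to 4.65) and 2321 of 6142 at 2 or more. A wide interval had more positions over which its maximum was taken.

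Median fold enrichment rose with width from one band of width to the next, from 1.36 at up to 300 bp to 3.12 above 100000 bp, with a wide spread in each, as the plot of width against fold enrichment shows. The share of summits at a fold enrichment of 2 or more was 0.464% for intervals of at most 300 bp, 15.3% for 501 to 1000 bp, 43.1% for 2001 to 5000 bp and 83.8% for the 37 intervals of more than 100000 bp. These 37 covered 19.7 Mb, or 38.0% of all bases in the list, and held the TSSs of 3619 protein-coding genes under 37 summits. The limit of 1000 bp cuts through a continuous range. The 3 intervals just inside it, at AT1G67160, AT3G09010 and AT3G25573, had pileups of 132, 163 and 130, and 3 of the 6 intervals of 1001 bp, at AT1G14330, MIOX1 and TET16, had pileups of 185, 178 and 138.

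**Figure D1:**
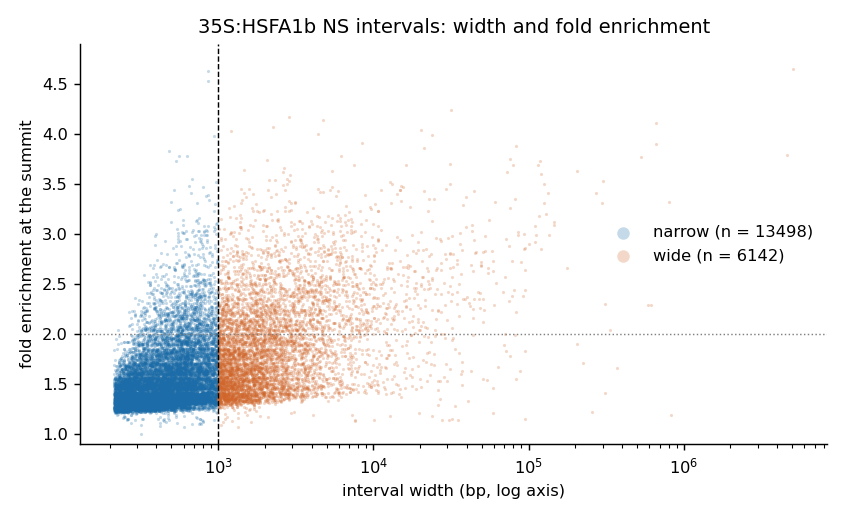
Each point is 1 interval of 35S:HSFA1b NS, with its width in bp on a log axis and the fold enrichment at its summit. The dashed line is the limit of 1000 bp between narrow (blue, n = 13498) and wide (orange, n = 6142) intervals, the dotted line a fold enrichment of 2. Few intervals of at most 300 bp (0.464%) lie above the dotted line, and the widest interval (5.10 Mb) has the highest fold enrichment, 4.65.

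Wide intervals were spread very unevenly over the genome. They covered 66.3% of chromosome 1, 36.3% of chromosome 3 and 56.0% of chromosome 5, but 4.79% of chromosome 2 and 2.41% of chromosome 4, where the widest interval was 7088 and 7095 bp. In the 35S:HSFA1b HS list, which shares 2 control libraries with this one, wide intervals covered 57.0%, 1.29%, 34.0%, 0.247% and 47.9% of chromosomes 1 to 5. In NP:HSFA1b NS, which shares none, they covered 0.0925% to 0.126% of each chromosome. The 2 smallest chromosomes were thus the ones with little wide cover in both 35S lists.

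Along the arms of the chromosomes the cover rose with distance from the nearer end, from a mean of 1.53% in 1 Mb bins within 2 Mb of an end to 30.7% between 4 and 6 Mb and 66.7% between 8 and 12 Mb. The plot of wide cover by distance shows that the rise belonged to chromosomes 1, 3 and 5. Bins of chromosomes 2 and 4 stayed low at the same distances, and the lowest arm bin between 8 and 12 Mb was covered to 2.51%. Narrow intervals also became denser in the bases that wide intervals left free, from 95.6 per Mb within 2 Mb of an end to 302 per Mb between 4 and 6 Mb, and then numbered 234 per Mb between 6 and 8 Mb and 253 per Mb between 8 and 12 Mb. Narrow intervals of fold enrichment of at least 2 numbered 17.77 per Mb of free sequence near the ends and 15.8 to 18.8 per Mb farther in. Pooled over the chromosomes, their density thus stayed within a narrow range while that of all narrow intervals did not. Between 8 and 12 Mb most of the free sequence lay on chromosomes 2 and 4. The pooled values therefore do not describe each chromosome.

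**Figure D2:**
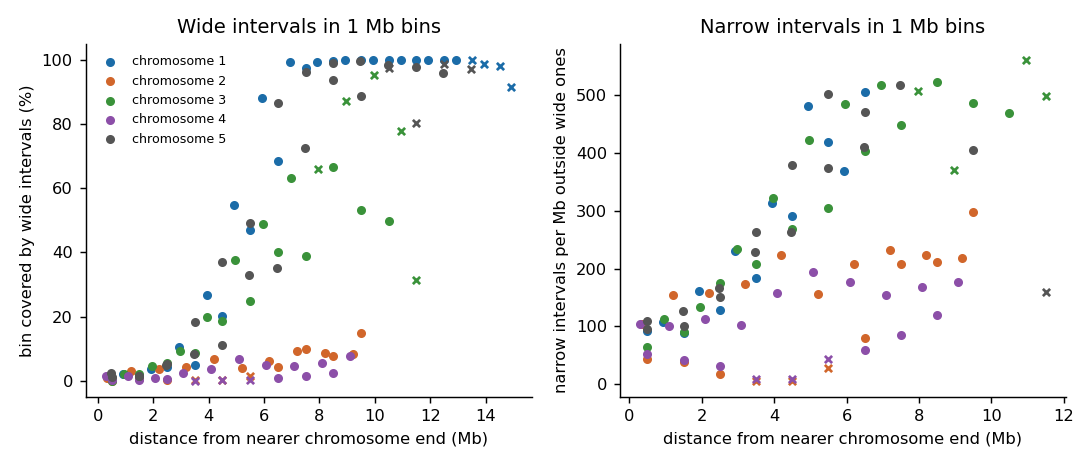
Each point is a 1 Mb bin, placed by its distance from the nearer chromosome end in Mb, with the share of the bin covered by wide intervals (left, %) or the number of narrow intervals per Mb of sequence outside wide ones (right). Circles are arm bins, crosses bins in the pericentromere, and colours are chromosomes. Cover rises to near 100% on chromosomes 1 and 5 and stays low on chromosomes 2 and 4.

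The strength of narrow summits differed between chromosomes as well. On chromosomes 2 and 4 they had median pileups of 144 and 147, against 128 to 136 on the other chromosomes, and fold enrichments of at least 2 in 11.7% and 14.6%, against 5.61% to 8.22%. The share with a G-box was 5.15% and 6.43% there, and 3.005% to 4.299% elsewhere. These values depend on the division by width. Strong narrow summits numbered 174, 300, 239, 262 and 212 on chromosomes 1 to 5, and strong wide ones 493, 258, 736, 139 and 695. Most strong summits of chromosomes 1, 3 and 5 thus fell in the wide class, and the narrow values do not rank the chromosomes by strength. Of the narrow summits, 824 (6.10%) lay in the pericentromere, here the 19.2 Mb around the centromeres with low density of coding genes, and of the wide ones 728 (11.9%). The highest pileups of narrow intervals were found there (up to 979) where the local background was above the constant, without high fold enrichment. At the constant background the pericentromere also held AGL44, a MADS-box gene, with a pileup of 422, a fold enrichment of 4.53 (second among all narrow intervals) and a summit of NP:HSFA1b NS 19 bp away, and AT3G29805, a pseudogene (352, 3.78).

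Narrow summits lay near transcription starts more often than the bases of the chromosomes do, though most were farther away. Of the 13498, 4997 (37.0%, 36.2 to 37.8) were within 250 bp of a TSS, a zone that holds 15.0% of the bases of the chromosomes, and among the strong ones the share was 48.5% (45.6 to 51.4). Wide summits gave 38.1% (36.9 to 39.4). The share depended on strength only at the low end, with 25.4% of narrow summits below a fold enrichment of 1.5 and 51.9% between 1.5 and 2. Strong narrow summits were most frequent in the 100 bp after the TSS (14.2%) and the 100 bp before it (11.8%).

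The base under the summit changed with strength as well. Among narrow summits of fold enrichment of at least 2, 56.4% were intergenic, 28.1% in untranslated regions, 6.49% in coding exons and 2.95% in introns. These classes make up 35.9%, 10.6%, 28.3% and 15.2% of the chromosomes. Over all narrow summits 23.7% lay in coding exons, above the 6.49% of the strong ones and below the genome. Pseudogenes were the nearest gene for 0.590% of the strong summits and 4.98% of all narrow ones, while they make up 10.3% of the annotated genes.

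The G-box was the more frequent motif. It was found at 578 of 13498 narrow summits (4.28%, 3.95 to 4.64) and at 154 of 1187 with a fold enrichment of at least 2 (12.97%, 11.1 to 15.0). Of all 101 bp windows of the chromosomes 1.11% held it, and of the windows centred 100 bp upstream of protein-coding genes 3.39%. The share rose from 2.02% below a fold enrichment of 1.5 to 5.61%, 12.3% and 16.7% in the next 3 bands, and was 13.5% at 3 or more, where only 52 summits were counted. Wide summits followed the same course, from 0.995% to 16.6%. Strong narrow summits held it near a TSS (11.8%) and farther away (14.1%).

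The HSE was rarer. It was found at 69 narrow summits (0.511%, 0.398 to 0.647) and at 17 of the 1187 strong ones (1.43%, 0.836 to 2.28), against 0.196% of all windows and 0.146% of promoter windows. From the weakest to the strongest band its share went from 0.283% to 3.85% (0.469 to 13.2), the last from 2 of 52 summits. Of strong narrow summits 2.43% held it within 250 bp of a TSS and 0.491% farther away, with intervals of 1.34 to 4.04 and 0.101 to 1.43. Strong wide summits gave 1.98% (1.23 to 3.02) and 1.11% (0.607 to 1.85). In both classes the intervals overlap, only slightly so in the narrow one. The centre of the HSE lay a median of 18 bp from the summit over the 69 narrow summits. The looser HSE of 2 units (GAANNTTC) was found at 5.27% of narrow summits and 3.97% of all windows.

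In strong intervals both motifs were concentrated at the summits themselves. In the plot of motif density, strong narrow intervals held 1.60 G-boxes per kb within 50 bp of the summit, 0.505 at 150 to 200 bp and 0.118 at 350 to 400 bp. Weak narrow intervals held 0.232 per kb within 50 bp. HSEs reached 0.168 per kb within 50 bp in both strong narrow and strong wide intervals and fell to 0.0505 and 0.0689 in the next 50 bp. In weak narrow intervals they were not concentrated, with 0.0296 per kb within 50 bp and 0.0310 at 150 to 200 bp.

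**Figure D3:**
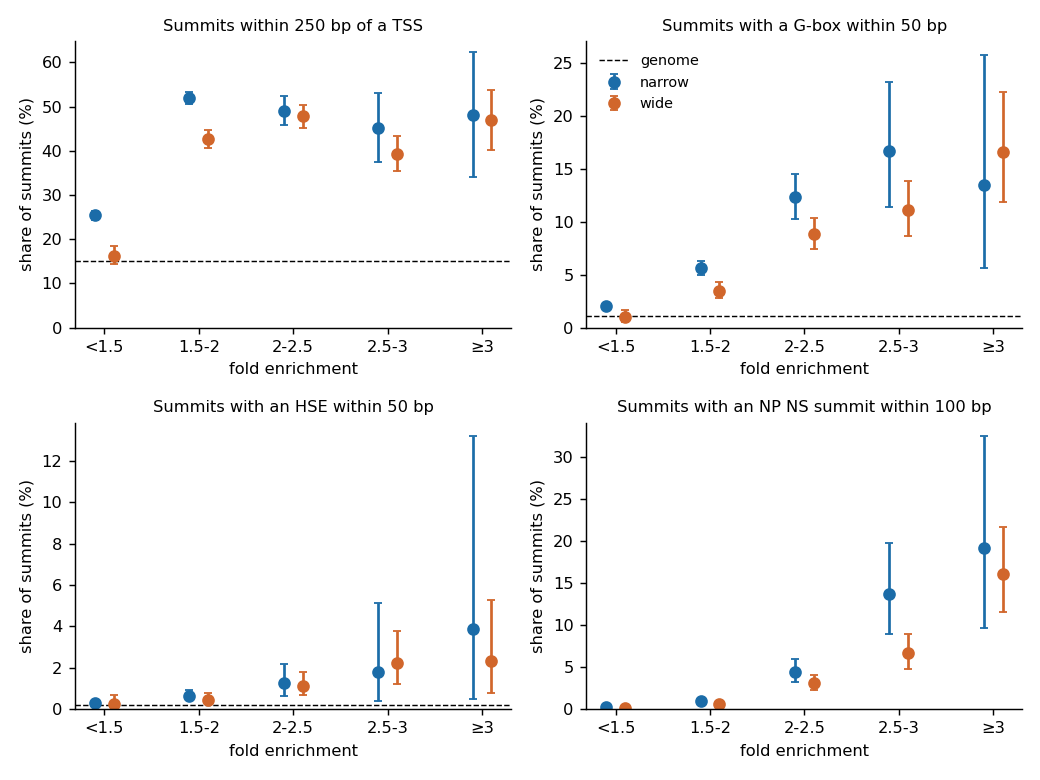
Share of summits (%) by band of fold enrichment, for narrow (blue) and wide (orange) intervals, that lie within 250 bp of a TSS, hold a G-box or an HSE within 50 bp, or have a summit of NP:HSFA1b NS within 100 bp. Bars are exact binomial 95% intervals and the dashed line is the share of the genome. The NP shares and the wide G-box share rise through every band, the narrow G-box share rises up to a fold enrichment of 3, and the TSS share levels off above 1.5.

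**Figure D4:**
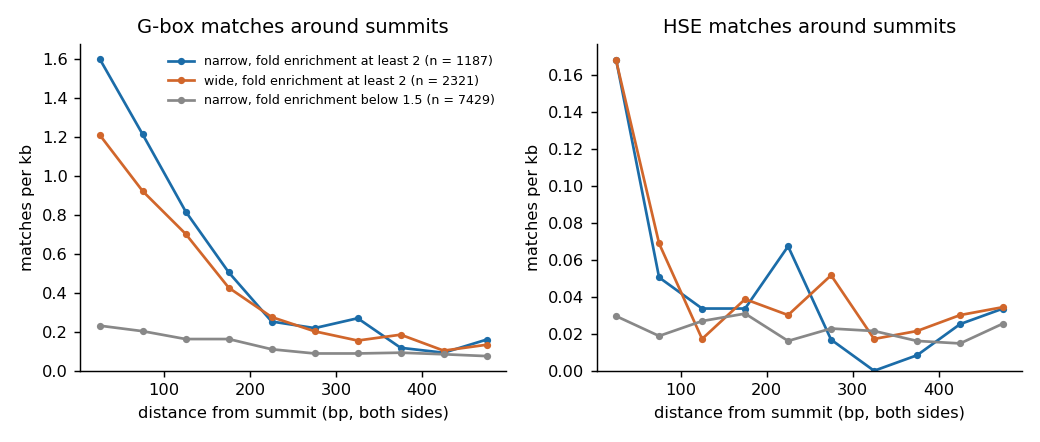
Matches per kb of the G-box (left) and the HSE (right) by distance from the summit in bp, in bins of 50 bp on both sides, for strong narrow, strong wide and weak narrow intervals. G-boxes fall from 1.60 per kb at strong narrow summits to near the level of weak intervals beyond 350 bp, and HSEs are raised in the innermost bin of strong intervals.

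Other promoter elements were searched in the same windows. ERSE (CCAATNNNNNNNNNNCACG), the ER stress element, was found at 14 of the 1187 strong narrow summits (1.18%, 0.646 to 1.97), against 0.0622% of all windows and 0.317% of promoter windows. The UPRE core TGACGTGG, which shares bases with the G-box core, was at 1.60% (0.966 to 2.49), against 0.192% and 0.634%. GAGA repeats (GAGAGAGA) were at 8.42% (6.91 to 10.15), against 1.61% and 1.81%, and within 250 bp of a TSS at 12.5%. The site II element TGGGCC reached 6.40% (5.08 to 7.95), which is under its 8.15% in promoter windows. The evening element AAATATCT, bound by clock proteins, stood at 1.35% (0.772 to 2.18) with 1.21% of all windows. Each pattern was searched on both strands, and a match is a stretch of letters, not a shown binding site.

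The 20 narrow intervals of highest fold enrichment outside the pericentromere had values of 3.23 to 4.63 and pileups of at least 300. The highest was in AT2G26730, a leucine-rich repeat kinase gene (chr2:11388140-11389000), with a pileup of 431 at a summit 208 bp downstream of the TSS. Next came AT1G04000 (pileup 370, fold enrichment 3.98), WRKY47 (382, 3.83) and AT5G61970, a gene for a protein of signal recognition particle type (352, 3.78). Regulators of transcription among the names, picked out after these were seen, were WRKY47 and WRKY7 (327, 3.52), both of the WRKY family of defence regulators, the LOB-domain gene LBD41 (323, 3.47), the DNA-binding protein gene AT3G10040 (315, 3.39) and HSFB2b (307, 3.30), a class B heat shock factor that represses transcription. WRKY22 had the third highest pileup of narrow summits outside the pericentromere, at 375, but a local background of 127 gave it a fold enrichment of 2.93.

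Genes of primary and cell wall metabolism were also among the 20. GAPC1, a cytosolic glyceraldehyde-3-phosphate dehydrogenase, had a summit 129 bp upstream of the TSS (pileup 311, fold enrichment 3.34), C4H, cinnamate-4-hydroxylase of the phenylpropanoid pathway, one 141 bp downstream (301, 3.24), and CSI1, which links cellulose synthase to microtubules, one 75 bp downstream (302, 3.25). HSC70-1 closed the list (300, 3.23). Of the 20, 10 were within 250 bp of a TSS, 2 held a G-box and 1, HSC70-1, an HSE. A summit of NP:HSFA1b NS lay within 100 bp of 6 (AT1G04000, WRKY47, AT5G61970, AT5G01850, CSI1 and HSC70-1). The background was the constant at 19 of them, WRKY47 being the exception.

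The 10 wide intervals of highest fold enrichment ran from 3.99 to 4.65. The highest was the 5.10 Mb interval on chromosome 1 (chr1:9623202-14721581), whose single summit was in AT1G36060, and PUB19, a ubiquitin ligase gene, stood for an interval of 0.663 Mb (pileup 382, fold enrichment 4.11). ADT5, an arogenate dehydratase of phenylalanine synthesis, had its summit in an interval of 31671 bp (395, 4.24). Shorter intervals of 2851, 4740 and 4394 bp held the summits at TPL, TPR3 and ACT7. The intergenic summit at −468 bp from the TSS of TPL, the corepressor TOPLESS, reached 4.17 with a G-box, and its relative TPR3 reached 4.14 at 223 bp upstream. ACT7, an actin of growing tissue, reached 3.998 at 127 bp upstream, where NP:HSFA1b NS had a fold enrichment of 7.80.

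HSFA1b itself (AT5G16820, chr5:5530195-5532889, plus strand) lay under 2 wide intervals that together covered 90.8% of the gene, with summits in coding exons. Their fold enrichments were low, at 1.35 and 1.51, with pileups of 236 and 323, so the local background there was above the constant. The NP:HSFA1b NS list held an interval at the start of the gene, with its summit 64 bp downstream of the TSS and a fold enrichment of 2.24. The transgene carries HSFA1b sequence, and fragments of transgene and native gene cannot be told apart here.

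Strong narrow summits with an HSE were counted by place. Of the 17, 14 were within 250 bp of a TSS, 11 of them 0 to 250 bp inside the transcript, and 7 had a summit of NP:HSFA1b NS within 100 bp. After HSC70-1, Hop3 and AT3G03165 came AT2G24680, a B3-domain regulator (pileup 262, fold enrichment 2.82), the DnaJ gene AT2G20560 (250, 2.69) and AT3G55570 (225, 2.42). AT2G14880 (216, 2.33), SNRK2.3, a kinase of abscisic acid signalling (215, 2.32), HD2C, a histone deacetylase (210, 2.26), and UBC2, a ubiquitin-conjugating enzyme (207, 2.23), followed. The remaining 7 had lower values down to the limit of 2. HSC70-1, Hop3 and AT2G20560 were the chaperone and co-chaperone genes among the 10 named.

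The list of HSFA1b intervals in unstressed native-promoter plants shares no library with this one and was compared as a description. Of the 955 NP:HSFA1b NS summits, 193 (20.2%, 17.71 to 22.9) lay inside a narrow interval, 614 (64.3%, 61.2 to 67.3) inside a wide one and 148 (15.5%, 13.3 to 17.95) in none, where narrow and wide intervals cover 5.55% and 37.9% of the chromosomes. Of the 100 native summits of highest fold enrichment, 33 were in narrow, 60 in wide and 7 in no interval. Summits matched less often than intervals. Within 100 bp of a native summit lay 139 narrow summits, which are 1.03% of the narrow ones and 14.6% of the native ones, and 135 wide summits, 2.198% and 14.1%.

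The matched narrow summits were stronger. The 139 had a median pileup of 190 against 136 for the other 13359, and 54.7% against 8.32% had a fold enrichment of at least 2. An HSE was at 5.76% (2.52 to 11.03) of them against 0.457% (0.349 to 0.586), and a G-box at 8.63% (4.54 to 14.6) against 4.24% (3.90 to 4.59). The match rose with strength, from 0.215% of weak narrow summits to 13.7% between 2.5 and 3 and 19.2% (9.63 to 32.5) at 3 or more.

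A protein-coding gene was counted as holding a narrow summit when one lay in the gene or within 1000 bp upstream. Of 27444 such genes 8891 (32.4%) did, 6649 of them with a single summit, and 1004 (3.66%) held a strong one. The TSS of 10536 genes (38.4%) lay inside a wide interval, and of the 16908 other genes 7757 (45.9%) held a narrow summit. A strong summit of either class was found for 3106 genes (11.3%). Among the 8497 genes of chromosomes 2 and 4 the TSS of 641 (7.54%) was under a wide interval. The gene lists below, 208 genes in 11 lists, were read against these shares. Together 81 of the 208 (38.9%) held a narrow summit, 26 (12.5%) a strong one, and 112 (53.8%) had the TSS in a wide interval.

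Of the 21 genes for HSP70, HSP90, HSP100 and HSP60 proteins, 16 (76.2%, 52.8 to 91.8) had a strong summit of either class, against 11.3% of all genes. A strong narrow one was held by 7 (33.3%, 14.6 to 57.0), against 3.66% of all genes. HSC70-1 led, followed by HSP101, the cytosolic disaggregase (pileup 253, fold enrichment 2.72, 129 bp downstream of the TSS), and CLPB4, its mitochondrial relative (242, 2.60, 145 bp downstream). HSP90.3 of the cytosol (215, 2.32), HSP90.5 of the chloroplast (205, 2.21), HSP60-3A of mitochondria (200, 2.15) and CPHSC70-1 of the chloroplast (190, 2.05) completed the 7. All had the summit 9 to 172 bp downstream of the TSS. Wide intervals gave HSP90.2 (303, 3.26), HSP70-3 (300, 3.23), HSP60 (300, 3.23), HSP70-4 (285, 3.07) and MTHSC70-2 (285, 3.07).

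Several of these genes were also in the native-promoter list and in the 35S list under heat stress, the last with 2 of the same control libraries. HSC70-1 had fold enrichments of 3.23 in 35S:HSFA1b NS, 7.21 in NP:HSFA1b NS and 1.90 in 35S:HSFA1b HS. HSP101 had 2.72 and 6.28, and no summit of 35S:HSFA1b HS was counted for it. Whether a 35S:HSFA1b HS interval with its summit elsewhere covered HSP101 was not tested. HSFA2, the heat-induced factor that prolongs the response, had 3.15 in a wide interval, 7.92 and 2.83, and HSFB2b 3.30, 5.59 and 2.38. The backgrounds differ between the lists, so that the values are set side by side and not compared.

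Small HSPs and co-chaperones followed. Of the 16 small HSP genes 7 had a strong summit (43.8%, 19.8 to 70.1), against 11.3% of all genes. HSP17.8-CI (pileup 274, fold enrichment 2.95, 7 bp upstream of the TSS) and mitochondrial HSP23.6 (210, 2.26, 1 bp upstream) had it in narrow intervals, and HSP17.4-CI (299, 3.22), HSP17.7-CII (286, 3.08) and HSP23.5 (286, 3.08) were highest in wide ones. Of the 15 co-chaperone genes 8 had a strong summit (53.3%, 26.6 to 78.7), against the same 11.3%. Hop3 (283, 3.04) and BAG6, a calmodulin-binding BAG-domain protein, with a G-box (230, 2.32), were narrow. J3 (310, 3.33), a DnaJ protein of the cytosol, and BOB1 (300, 3.23) were the highest wide ones. This BOB1 summit lay 2292 bp downstream of the TSS and is not the HSE summit shown above.

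Of the 21 genes for heat shock factors 5 (23.8%, 8.22 to 47.2) had a strong summit, an interval that holds the 11.3% of all genes. HSFB2b was the narrow one, with its summit 250 bp downstream of the TSS. HSFA2 (293, 3.15), HSFB2a (249, 2.68), HSFA8 (226, 2.43) and HSFA4a (195, 2.101) were in wide intervals. Their summits lay 4, 1576, 2029 and 329 bp downstream of the TSS, so those of HSFB2a and HSFA8 were far from it. HSFA3, which acts in heat and drought, had a narrow summit just below the limit (183, 1.97).

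Among 21 genes of ER chaperones and the unfolded protein response, 10 held a narrow summit (47.6%, 25.7 to 70.2, which holds the 32.4% of all genes). A strong narrow one was held by 4 (19.0%, 5.45 to 41.9), against 3.66% of all genes. The 4 were ERDJ3A, a DnaJ protein of the ER (pileup 281, fold enrichment 3.02), the membrane-bound regulators BZIP28 (250, 2.69) and BZIP17 (227, 2.44), which are released under ER stress, and SHD, the HSP90 of the ER, with a G-box (189, 2.04). CNX1 (180, 1.94) and CRT1B (179, 1.93), a calnexin and a calreticulin, were just below. With wide summits 5 of 21 genes were strong (23.8%, 8.22 to 47.2), an interval that again holds the 11.3% of all genes.

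Clock and light genes carried several narrow summits. Of 26 circadian clock genes 14 (53.8%, 33.4 to 73.4) held one, against 32.4% of all genes. A strong narrow one was held by 5 (19.2%, 6.55 to 39.4), against 3.66% of all genes. CCA1 (pileup 239, fold enrichment 2.57), a morning factor, PRR9 with a G-box (222, 2.39), a morning repressor, and ELF4 (198, 2.13), ELF3 (192, 2.07) and BOA with a G-box (189, 2.04), which act in or beside the evening complex, were the 5. RVE7 was high in a wide interval (319, 3.43). Of 22 photoreceptors and G-box binding factors 9 had a strong summit (40.9%, 20.7 to 63.6), against 11.3% of all genes. PIF7 (250, 2.69) and PIF1 (202, 2.18) were narrow, and PHYB, the main red light receptor of green plants, was wide with a G-box (300, 3.23). The gene of a G-box binding protein and a G-box under a summit are separate facts here.

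Light-harvesting and Rubisco genes were mostly under wide intervals. The TSS of 21 of 23 (91.3%, 72.0 to 98.9) was inside one, against 38.4% of all genes. On chromosomes 2 and 4, where wide intervals took 7.54% of genes, 6 of 7 were under one. Narrow LHCB4.3 (212, 2.28) was the exception with a strong summit of its own, and RBCS1A (297, 3.08) and RBCS3B (278, 2.99) were the highest wide ones. LHCB1.4 and LHCB1.5 are neighbours and share 1 summit. The paper's methods discard broad peaks over the bodies of strongly transcribed genes, and that step was not applied here. Whether it would remove the wide intervals at these genes was not tested.

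Stress-inducible regulators gave 11 of 27 genes with a strong summit (40.7%, 22.4 to 61.2), against 11.3% of all genes. Of these, ERF13 (223, 2.40) was narrow and the rest wide. ERF5, an ethylene response factor, was highest (327, 3.52), ZAT12, a zinc finger protein of oxidative stress, reached 2.86 (266), and DREB2A, a heat and drought regulator, 2.23 (207) with an HSE. Of 11 genes for antioxidant enzymes and galactinol synthases 2 had a strong summit (18.2%, 2.28 to 51.8, which holds the 11.3% of all genes), both wide, namely the cytosolic ascorbate peroxidase APX1 (250, 2.69) and the catalase CAT3 (284, 2.65). Another 6 held a narrow summit (54.5%, 23.4 to 83.3, which holds the 32.4% of all genes). Of these, GOLS1 with its HSE (184, 1.98) and APX2, a heat-induced ascorbate peroxidase (176, 1.90), were highest. Of 5 polyubiquitin genes 1 had a strong narrow summit (20%, 0.505 to 71.6), against 3.66% of all genes. It was UBQ10, with the summit 93 bp upstream of the TSS (270, 2.90).

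**Figure D5:**
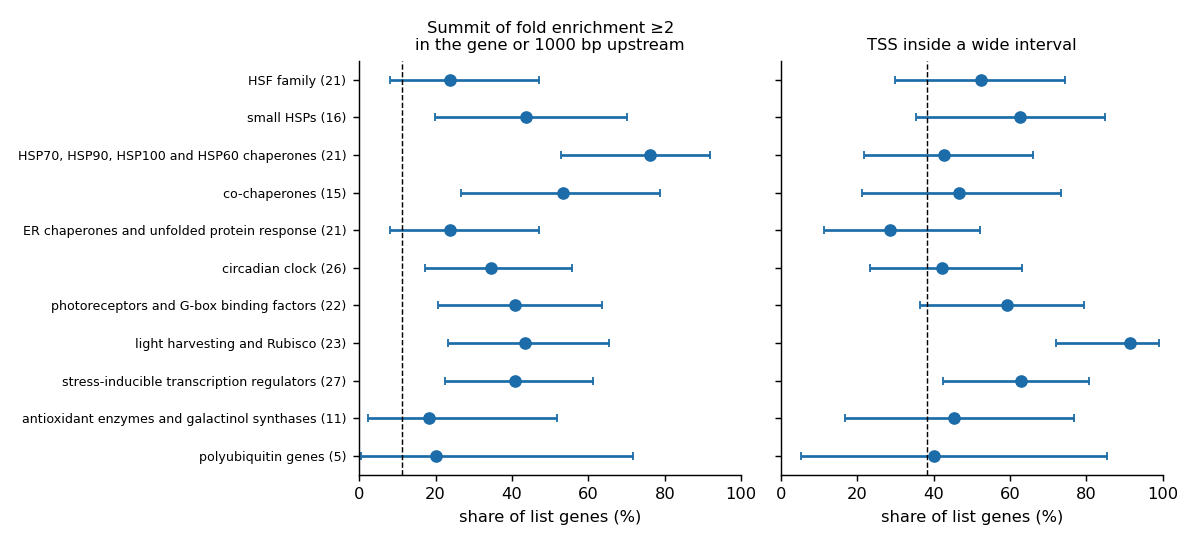
Share of the genes of each list (%, number of genes in brackets) with a summit of fold enrichment of at least 2 in the gene or 1000 bp upstream (left) and with the TSS inside a wide interval (right). Bars are exact binomial 95% intervals and dashed lines the share of all protein-coding genes, 11.3% and 38.4%. The large chaperones are highest on the left and the light-harvesting and Rubisco genes on the right.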

How the data were processed

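ChIP-seq libraries of 16 samples in 8 groups of 2 were deposited as 4 interval lists, grouped by the labels. Per the labels and the study's methods, the authors aligned paired-end reads to TAIR10 with GSNAP, removed duplicates with SAMtools and called intervals with MACS2. Per the file headers this was version 2.0.10.20131028 run on paired ends at a q-value of at most 0.05, with 4 control libraries. The paper's methods also ask for a fold enrichment of at least 2. They count as false positives any pericentromeric peaks and broad ones over the bodies of strongly transcribed genes. Those steps were not applied to the list used here. In it 16132 intervals had a fold enrichment below 2, and 1552 summits lay in the pericentromere. The caller kept 19579327 fragments of 2 pooled treatment libraries and 12760222 of the pooled control libraries, after removing redundant fragments (35% and 61%). The deposited values are pileup (coverage, a signal, by fragments at the summit), fold enrichment (a ratio to the local background) and the −log10 of the q-value. The background was recovered from pileup and fold enrichment with the caller's pseudocount of 1. Exact binomial 95% intervals cover counting error only.

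Intervals were read on chromosomes 1 to 5 of TAIR10, written from 1, and joined to genes of the RefSeq annotation of the same assembly (37899 genes, 27444 protein-coding) by the nearest TSS. Motifs were searched within 50 bp of summits, in 1177695 consecutive windows of 101 bp and in windows centred 100 bp upstream of protein-coding genes. The pericentromere was taken as the 500 kb windows, in steps of 100 kb, with under 50% of the median number of coding genes. The computation used Python 3.11.15 with numpy 2.4.6, scipy 1.17.1 and pandas 2.3.3, and was tested on simulated intervals.

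Genes were named by rule. They were the 20 narrow intervals of highest fold enrichment and the 5 of highest pileup outside the pericentromere, the 10 highest and 5 widest of the wide ones, 3 on each side of the width limit, the 10 highest narrow ones with an HSE, list members with a strong narrow summit or the strongest 3 of a list, and HSFA1b. Other names were chosen after their values were seen. Not every interval that the rule takes is reported here by name. The members and lists were chosen with earlier results of these data known. Alternatives of fold enrichment, q-value, width, distance, window, motif and annotation were tried. The heat stress list enters side by side only, since it shares 2 control libraries.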

Additional observations from a re-analysis of the deposited data

How the results depend on the processing

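Of 83 alternative values of 13 results, 24 stayed within the counting interval (counts within 1.5 times) and 59 moved, 27 of them by over 1.5 times. No paired analysis was possible because the libraries were pooled before calling, and for the same reason no replicate could be left out. Each alternative listed was run.

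With a fold enrichment of at least 2, 1187 narrow and 2321 wide intervals were left, with median pileups of 205 and 218 and fold enrichments of 2.21 and 2.35. The shares near a TSS became 48.5% (narrow) and 45.6% (wide), the HSE share 1.43%, the G-box share 12.97%, and 1004 genes held a narrow summit. Limited so in both lists, 6.32% of narrow and 8.399% of native-promoter summits matched. At q of 0.01 the narrow median pileup was 139, the fold enrichment 1.49 and the TSS share 39.5%. Without the pericentromere the wide median pileup was 176, the fold enrichments 1.48 (narrow) and 1.88 (wide), and the TSS shares 38.5% and 40.8%.

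With a width limit of 500 bp there were 7842 narrow and 11798 wide intervals, median pileups of 131 and 158, fold enrichments of 1.404 and 1.68, TSS shares of 34.1% and 39.5%, a G-box share of 3.89%, matches of 0.714% and 5.86%, and 5652 genes. With 2000 bp there were 2933 wide intervals, pileups of 139 and 190, fold enrichments of 1.501 and 2.02, a wide TSS share of 40.6% and 19.6% of native summits matched.

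The TSS share was 18.8% (narrow) and 18.3% (wide) within 100 bp, 47.5% and 51.0% within 500 bp, and 32.5% and 33.5% for coding genes only. Within 25 bp of the summit the HSE share was 0.304% and the G-box share 2.29%, and within 100 bp 0.770% and 7.77%. With 1 mismatch the HSE was at 4.82% of narrow summits and at 3.88% of every 50th genome window, and the HSE of 2 units at 5.27%, so that the excess over the genome was smaller for the looser forms. Matched summits were 0.659% and 9.32% within 50 bp, 1.28% and 18.12% within 200 bp, and 1.72% and 23.46% by overlap of at least 1 bp. Within 250 bp of the TSS 4787 genes held a narrow summit.

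The lowest pileup called was 112 over a constant background of 92.3, and no value of the list carries an error between plants.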
